A study of Mus musculus with 82 samples.

Results

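The probe sets described here are those of an Affymetrix mouse array that have no gene symbol in the probe annotation used, leave out the control probe sets, and reach a mean log2 value of 6 or more over the vehicle arrays of a cell type. Of 45037 probe sets other than controls, 9160 have no symbol. Among these, 2945 reached the level in mouse embryonic fibroblasts (MEFs) and 2320 in primary hepatocytes, 1946 of them in both and 3319 in either. Members were thus selected on their measured level over the vehicle arrays, which is a description and not a finding, and those arrays are also the control of every treatment comparison. The annotation lists only probe sets with a gene, and a probe set missing from it has no entry here, which does not show that it lies outside a gene.

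The study measured total RNA of C57BL/6 cells on 82 arrays, 23 of MEFs and 59 of hepatocytes. Cells were either control (WT) or AMPK alpha1-/- alpha2-/- (dKO), a genotype without the catalytic alpha subunits of the kinase AMPK. They received vehicle (DMSO), 991 or AICAR for 4 h. Doses were 10 µM 991 and 2 mM AICAR in MEFs, and 3 µM 991 and 300 µM AICAR in hepatocytes, so the cell types and the compounds cannot be compared at a matched dose.

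MEFs were grown in serum, and their arrays are technical replicates per the labels, 3 for WT cells with 991 and 4 in every other group. Their p-values measure the spread between these arrays only, and the sources used here do not say whether more than 1 line of either genotype was used. Hepatocytes were isolated by collagenase perfusion, plated on collagen, and kept overnight with dexamethasone and without serum before treatment. Each genotype had 2 preparations, and each preparation 5 arrays for every treatment (4 for the vehicle of dKO preparation 1). The mean of those arrays stands for a preparation, which leaves 2 values in each hepatocyte group and few degrees of freedom.

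AMPK senses a low energy state of the cell and shifts metabolism from synthesis to energy production, in liver also by restraining lipid synthesis. The compound 991 binds the kinase directly, whereas AICAR is taken up and phosphorylated to an AMP mimic that can act on other AMP-regulated enzymes too. Probe sets of this array family were designed against clusters of cDNA and expressed sequence tags, some of them spliced messages and others single unspliced clones, so a probe set without a symbol can report a noncoding RNA, an intron, an extended 3′ end or an unlisted gene.

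The annotation pairs no accession or sequence with these probe sets, so they are given by the identifier that the array uses. Its suffix marks design: a plain _at set is meant to be unique, _a_at covers transcripts of 1 gene, and _s_at and _x_at can detect several transcripts. Plain _at sets made up 89.2% of members in MEFs and 86.9% in hepatocytes, against 72.0% and 71.1% of probe sets with 1 symbol at 6 or more. Members also gathered in certain stretches of the numbers in these identifiers. In ranges of 100 numbers, 126 of 452 held at least 25% probe sets without a symbol (26% to 86%), called sparse ranges below, and the other ranges had a median of 6%. Sparse ranges held 1736 of the 2945 MEF members and 1249 of the 2320 hepatocyte members. This split was made after values had been seen.

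Probe sets without a symbol were dimmer than those with one. A level of 6 was reached by 32.2% of them in MEFs and 25.3% in hepatocytes, against 59.3% and 54.9% of the 34945 probe sets with 1 symbol. Members had a median level of 7.03 in MEFs and 6.87 in hepatocytes, and probe sets with 1 symbol at 6 or more had 8.34 and 8.19. For this reason shares below are set against those of probe sets with 1 symbol of the same level, taken within steps of 1 log2 unit and weighted to the members' levels. In MEFs 192 probe sets without a symbol lay between 5.9 and 6 and 185 between 6 and 6.1, and in hepatocytes 173 and 186 did. The median SD within a group was close to that of probe sets with 1 symbol at each level, 0.115 against 0.116 in MEFs and 0.125 against 0.117 in hepatocytes between 6 and 7.

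Markers and controls gave the setting of these values. The 7 measured hepatocyte markers were all at 10 or more in hepatocytes, where all 6 Kupffer cell and all 5 endothelial markers also reached 6, and 6 of 8 fibroblast markers reached 6 in MEFs. Hepatocytes also had 4 of 8 fibroblast, 2 of 4 stellate cell and 2 of 4 cholangiocyte markers at 6 or more. MEFs had 3 of 4 cholangiocyte, 2 of 4 stellate cell, 2 of 7 hepatocyte, 1 of 6 Kupffer cell and 1 of 5 endothelial markers there. Of the targeted genes, Prkaa1 (AMPK alpha1) differed in dKO from WT by −1.11 ± 0.09 in hepatocytes (log2, SE, limma adjusted p = 0.173) and by −0.09 ± 0.10 in MEFs (adjusted p = 0.54), and without knowing where either deletion lies these values do not check the labels. For Prkaa2 (AMPK alpha2) the 3 probe sets differed by −0.35 to −0.15 in MEFs and −0.14 to −0.08 in hepatocytes. The 3′ minus 5′ difference of the Gapdh control probe sets lay between 0.04 and 0.19 over all hepatocyte arrays, with overlapping ranges between treatments. That of the Actb control lay between 0.16 and 0.50 over hepatocyte arrays, also with overlap between treatments, and between 0.09 and 0.22 over MEF arrays.

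In hepatocytes AICAR lowered a large share of the members. In WT cells 633 of 2320 were lower and 305 higher (limma, adjusted p under 0.05), where 9.86% of all probe sets tested were called lower, 8.39% higher and 18.2% in either direction. That is 27.3% of members lower, against 11.5% of probe sets with 1 symbol of the same level, while 13.1% and 10.5% were higher. Falls of at least 1.5-fold were found for 343 members, or 14.8%, against 3.09% at the same level and 2.55% over all probe sets. In dKO cells 813 members were lower and 245 higher, with 10.8% and 9.97% of all probe sets called (20.8% in either direction). There 35.0% of members were lower, against 12.1% at the same level, and 551 (23.8%) fell by at least 1.5-fold, against 4.57% and 4.17% over all probe sets.

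The median change of members was −0.00 in WT and −0.05 in dKO on the log2 scale, against 0.04 and 0.03 over all probe sets tested, so the falls formed a long lower tail. The lowest 5% of members were below −1.22 in WT and −1.67 in dKO, where the same point for probe sets with 1 symbol was −0.37 and −0.40. Members with a level of 7 to 8 fell most often, 38.3% in WT and 46.8% in dKO. At 10 or more, 20.3% of members and 21.5% of probe sets with 1 symbol were lower in WT, and 9.18% and 13.4% in dKO.

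**Figure D1:**
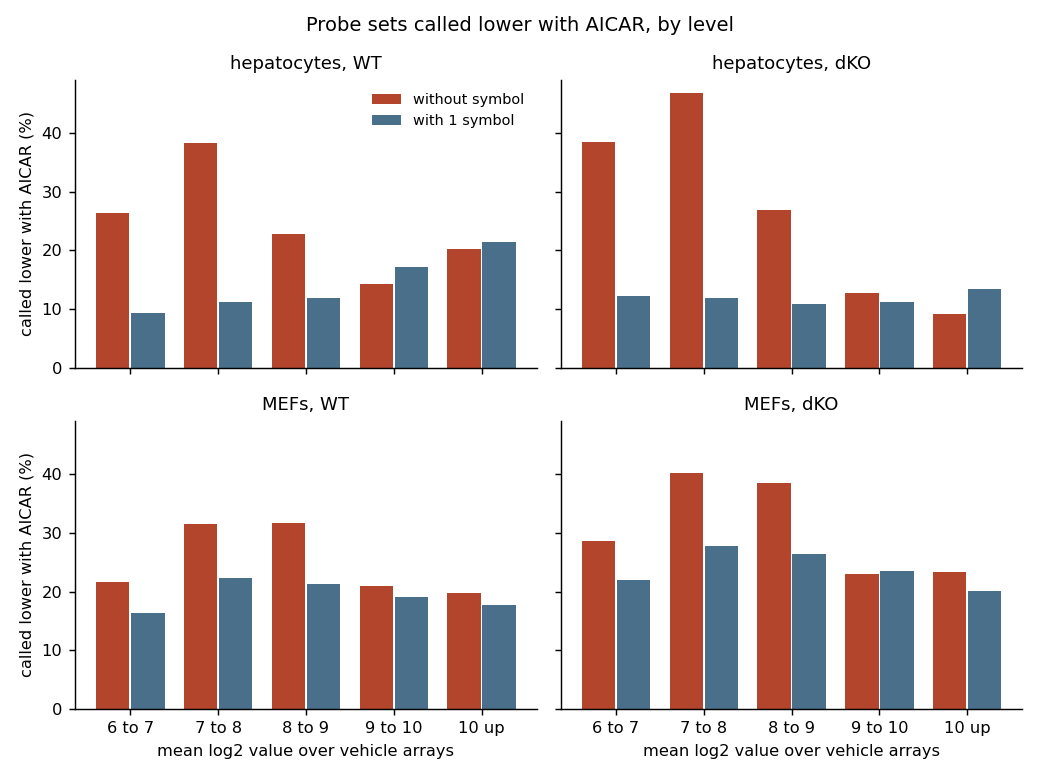
Percent of probe sets called lower with AICAR (vertical axis) by mean log2 value over the vehicle arrays (horizontal axis), for members without a symbol and probe sets with 1 symbol, in each cell type and genotype. In hepatocytes the members stand above the probe sets with 1 symbol below a level of 9, with 38.3% lower in WT and 46.8% in dKO between 7 and 8.

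Since the level was taken on the vehicle arrays, a probe set that drops is more readily a member than one that rises. With the level taken on the treated arrays instead, 21.2% of members were lower in WT hepatocytes and 28.2% in dKO. Over all probe sets tested, which no level rule selects, 9.86% were lower with AICAR in WT and 10.8% in dKO. No share of probe sets with 1 symbol is given under the treated-array rule. How much of the members' excess over them remains under it can therefore not be judged. Each preparation gave the pattern on its own as values without a test. Falls of at least 1.5-fold were seen for 16.4% and 14.1% of members in WT preparations 1 and 2, and for 24.7% and 22.3% in dKO, where probe sets with 1 symbol of the same level had between 3.26% and 5.17%. Without WT preparation 1, calls in WT went from 938 to 596, of which 437 were lower.

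The falls lay mainly in the sparse ranges. There 34.3% of members were lower in WT hepatocytes and 47.9% in dKO, and in the other ranges 19.05% and 20.07%. Probe sets with 1 symbol in the sparse ranges and of the same level as the members there were lower in 17.7% and 23.8%, and those of all ranges in 10.1% and 12.1%. Among probe sets of 1 symbol, those of long noncoding RNA genes were lower in 20.9% of 301 in WT and 25.9% in dKO, and those of protein-coding genes in 13.7% and 11.7% of 18751. The transcript class was looked at after the values had been seen.

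**Figure D2:**
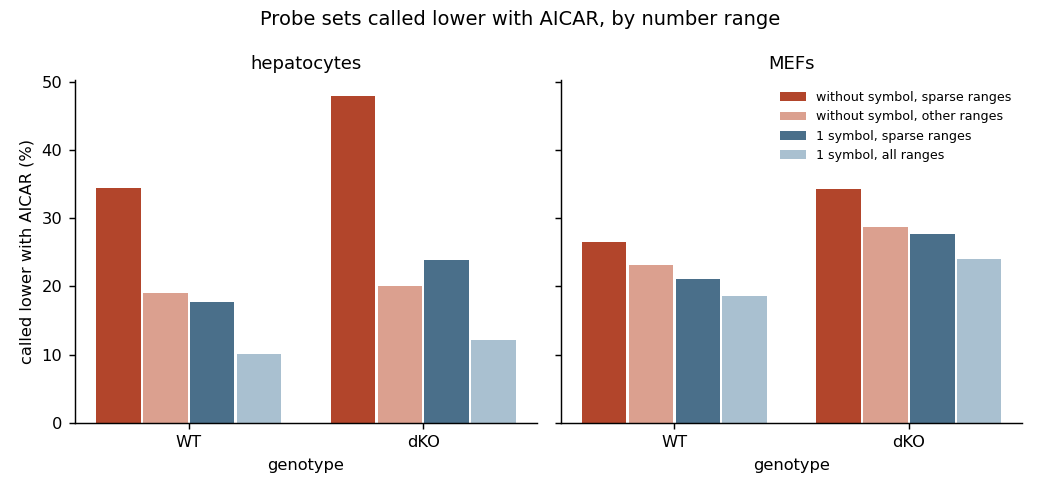
Percent called lower with AICAR (vertical axis) in each genotype (horizontal axis), for members in sparse and other number ranges and for probe sets with 1 symbol of the same level as the members in sparse ranges. Members in sparse ranges had the tallest bar in every panel, 34.3% in WT and 47.9% in dKO hepatocytes.

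Markers of other liver cell types moved in both directions beside these falls. With AICAR in dKO hepatocytes 5 of 6 Kupffer cell, 3 of 5 endothelial and 4 of 7 hepatocyte markers were higher and none of these 3 lists had a member called lower, and in WT cells 1, 2 and 3 were higher and none lower. The summed level of the Kupffer markers lay between 10.69 and 11.35 (log2) on WT vehicle arrays and between 11.00 and 11.36 with AICAR, and that of the endothelial markers between 9.38 and 9.79 and between 9.79 and 10.21. Stellate cell markers were higher for 2 of 4 in WT and 1 of 4 in dKO, and 1 of 4 cholangiocyte markers was lower in each genotype. The summed cholangiocyte level was lower with AICAR without overlap, between 8.87 and 9.07 on vehicle arrays and 8.46 and 8.84 with AICAR in WT, and between 9.02 and 9.27 and 8.850 and 8.997 (log2) in dKO. The part of these cells in the members' changes was not tested. In such bulk samples, fewer cells of a type and less RNA per cell cannot be told apart.

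The member with the largest fall in WT hepatocytes was 1443533_at. Its preparation means were 8.08 and 8.03 with vehicle and 4.95 and 5.18 with AICAR in WT, and 8.48 and 8.38 against 5.12 and 5.16 in dKO. The groups did not overlap in either genotype. It fell by 2.99 ± 0.08 on the log2 scale in WT, or 7.94-fold (SE, limma adjusted p = 8.27e-09), and its difference between genotypes did not pass the test (adjusted p = 0.312). The values carry no detection call, and those with AICAR were near the median of 4.95 over all probe sets without a symbol in hepatocytes. Whether the probe set was above background there is not known, and this holds for the other folds to values near 5 or below.

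Among the brightest of the falling members was 1441779_at. It stood at 11.00 and 10.93 with vehicle and 8.0004 and 8.1979 with AICAR in WT, and at 10.89 and 11.08 against 7.61 and 7.19 in dKO. All treated preparations were below all vehicle ones, with a decrease of 7.30-fold in WT (adjusted p = 1.02e-07) and 11.96-fold in dKO (adjusted p = 1.09e-08). Likewise 1445965_at went from 8.32 and 8.15 to 5.24 and 5.63 in WT, 6.96-fold lower (adjusted p = 5.42e-08), and from 8.32 and 8.32 to 5.07 and 4.98 in dKO. In dKO 1445980_at, at 8.87 and 8.54 with vehicle and 5.28 and 5.46 with AICAR, was 10.1-fold lower (adjusted p = 8.99e-09).

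Patterns most like these members over the 59 hepatocyte arrays came from probe sets of named genes whose other probe sets moved little. These correlations describe arrays that share 4 preparations. For 1443533_at it was a probe set of Slc35d1, a nucleotide-sugar transporter (r = 0.985), which fell by 2.77 ± 0.09 (log2) with AICAR in WT (adjusted p = 2e-08), while the other Slc35d1 probe set differed by 0.15 ± 0.06 (adjusted p = 0.0951). For 1441779_at it was a probe set of Rps24, a ribosomal protein (r = 0.992), which fell by 2.86 ± 0.07 (adjusted p = 5.8e-09), and the 4 other Rps24 probe sets at 6 or more differed by −0.13 to 0.02 (adjusted p from 0.0859 to 0.617). For 1445965_at it was a probe set of Mettl2, a tRNA methyltransferase (r = 0.987), which fell by 2.19 ± 0.08 (adjusted p = 3.15e-08), and the 2 others differed by −0.19 and −0.16 (adjusted p = 0.0758 and 0.0748). Probe sets of each of these genes thus gave unequal changes.

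Fewer members rose with AICAR in hepatocytes, and some rose far. The largest rise was 1458980_at, at 7.11 and 6.95 with vehicle and 10.04 and 9.80 with AICAR in WT, and at 7.10 and 7.10 against 10.31 and 10.70 in dKO. No preparation overlapped, and the rise was 7.43-fold in WT (adjusted p = 1.22e-08) and 10.6-fold in dKO (adjusted p = 2.82e-09). A rise of 4.32-fold was seen for 1440660_at, from 6.04 and 6.19 to 8.31 and 8.14 in WT (adjusted p = 1.6e-07). Its closest pattern was a probe set of H3f3b, which encodes a replication-independent histone variant (r = 0.977, 59 arrays).

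The rise of 1458710_at differed between genotypes. It went from 6.86 and 6.62 to 9.19 and 9.63 in WT, 6.36-fold higher (adjusted p = 1.86e-07), and from 6.86 and 6.74 to 7.34 and 7.37 in dKO, a difference of 0.55 ± 0.13 (log2, adjusted p = 0.00894). WT cells with AICAR stood above every other preparation, and the effect in WT exceeded that in dKO by 2.12 ± 0.18 (adjusted p = 9.04e-05). Its most like pattern was a probe set of Zbtb20, a zinc finger transcription repressor known in liver (r = 0.939), and that probe set rose by 1.66 ± 0.10 while 8 other Zbtb20 probe sets rose by 0.28 to 0.56.

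**Figure D3:**
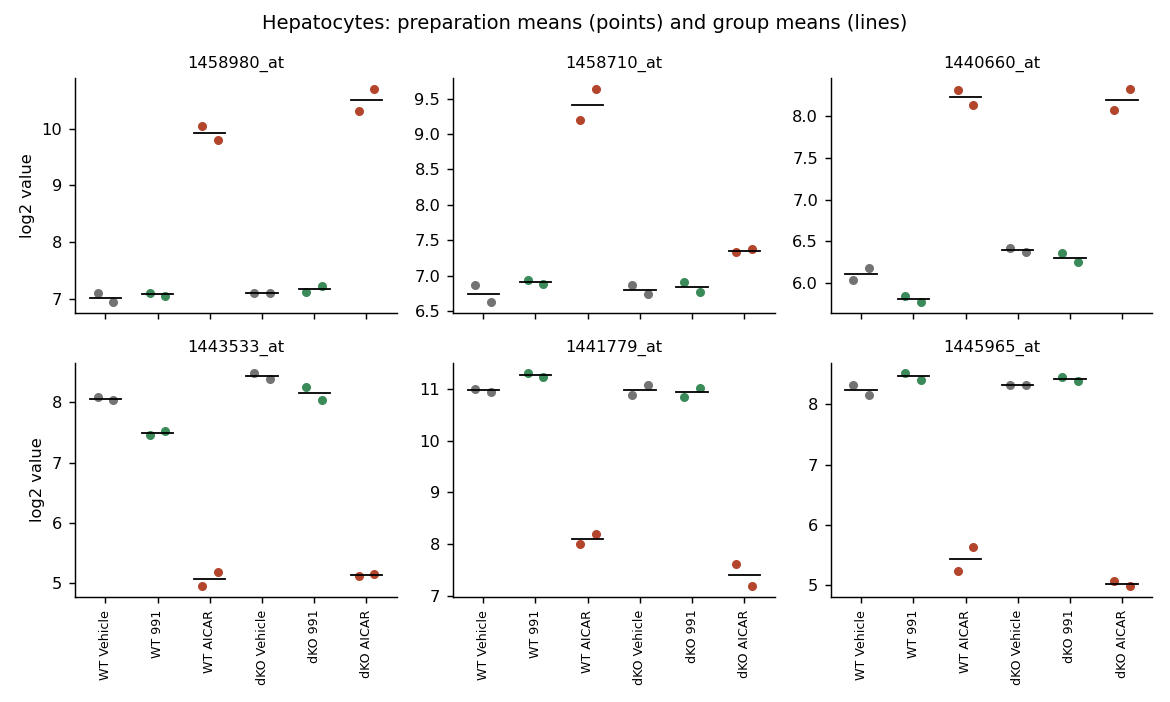
Log2 values (vertical axis, a scale of its own in each panel) of the 3 members with the largest rise and the 3 with the largest fall with AICAR in WT hepatocytes, for each genotype and treatment. Points are preparation means and lines group means, and the AICAR points of 1443533_at lie between 4.95 and 5.18 against 8.03 to 8.48 with vehicle.

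Most members that fell in WT also fell in dKO cells, and many had the larger fall there. Of members lower in hepatocytes, 568 were lower in both genotypes, 89.7% of those in WT and 69.9% of those in dKO, and none was lower in WT and higher in dKO. For probe sets with 1 symbol these shares were 57.6% and 66.5%, and 9 of the 2653 lower in WT were higher in dKO. Of the 568 members, 487 had the larger fall in dKO, with medians of −0.73 in WT and −1.07 in dKO. For probe sets with 1 symbol called lower in both, 874 of 1529 (57.2%) had the larger fall in dKO. The AICAR effect in WT minus that in dKO was above 0 for 275 members and below 0 for 27 (1.96% and 0.564% of all probe sets tested, 2.52% in either direction), or 11.9% and 1.16%, against 2.04% and 0.567% at the same level. Of the 275, 238 were lower in dKO, 113 in WT, and 125 in dKO and not in WT, and their median changes were −0.09 in WT and −0.99 in dKO.

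A fall in dKO cells that was not seen in WT was measured for 1440020_at. Its values were 7.61 and 7.73 with vehicle and 7.81 and 7.71 with AICAR in WT, and 7.76 and 7.81 against 5.61 and 5.07 in dKO. Only the dKO preparations with AICAR stood apart, and the effects differed by 2.54 ± 0.19 (log2, adjusted p = 4.61e-05), the change in WT being 0.09 ± 0.14 (adjusted p = 0.675). Opposite changes were measured for 1442427_at, 7.12 and 7.06 to 7.82 and 7.80 in WT and 7.20 and 7.09 to 5.27 and 5.42 in dKO. It rose by 0.72 ± 0.07 in WT (adjusted p = 5.58e-05), fell by 1.80 ± 0.07 in dKO (adjusted p = 2.84e-08), and differed by 2.52 ± 0.10 (adjusted p = 1.69e-06). Likewise 1442107_at rose by 0.53 ± 0.09 in WT (adjusted p = 0.00259) and fell by 1.74 ± 0.09 in dKO (adjusted p = 1.86e-07).

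Of the 27 members with a difference below 0, 22 were higher in dKO and 5 lower in WT, with median changes of 0.02 in WT and 0.63 in dKO. A fall in WT that was not seen in dKO was thus rarer, and 1457746_at shows it. Its preparations were at 6.91 and 7.08 with vehicle and 6.02 and 6.15 with AICAR in WT, and at 6.98 and 6.97 against 7.08 and 6.91 in dKO. WT cells with AICAR were lower than all others, where AICAR decreased the level by 0.91 ± 0.07 (adjusted p = 7.78e-06), and the effects differed by −0.93 ± 0.10 (adjusted p = 0.000432). The count of such interactions depended on single preparations: 177 members were called without WT preparation 2 and 184 without dKO preparation 1, of 302 with all.

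**Figure D4:**
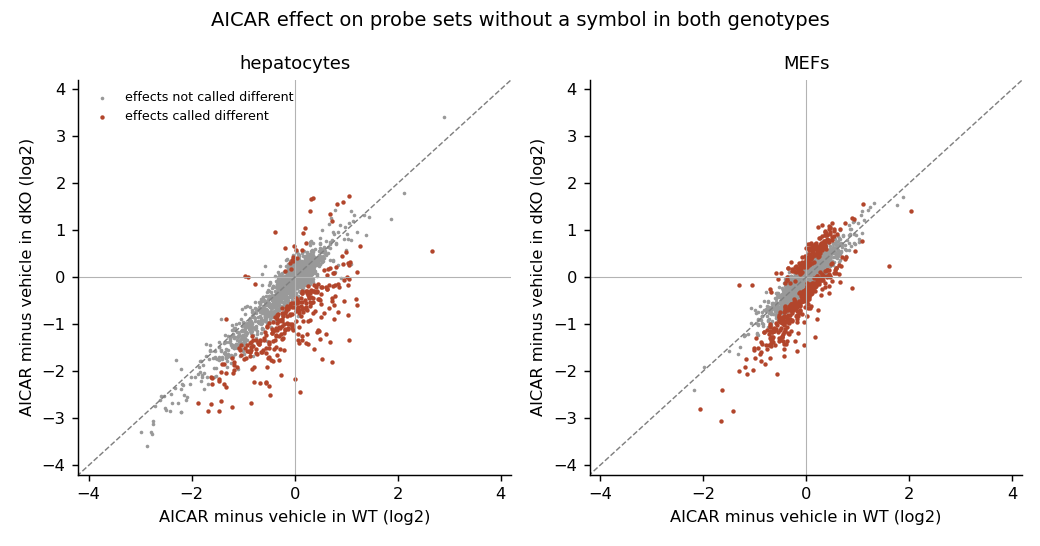
AICAR minus vehicle in dKO (vertical axis, log2) against the same in WT (horizontal axis, log2) for each member in hepatocytes (2320 points) and MEFs (2945 points). The dashed line marks equal effects, and darker points are members whose effects were called different between genotypes, 302 in hepatocytes and 448 in MEFs.

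With 991 far fewer members changed in hepatocytes. In WT cells 73 were higher and 77 lower, 6.47% of members, against 5.33% of probe sets with 1 symbol of the same level and 4.09% of all tested (2.51% higher, 1.58% lower). Falls took 3.32% of members and 2.04% at the same level. In dKO cells 0 members were called by limma, with 0.00666% of all probe sets called. An unadjusted p under 0.05 was found for 92 members, or 3.97%, against 3.99% of all probe sets tested. The effect of 991 differed between genotypes for 8 members, 7 higher and 1 lower in WT minus dKO, with 0.158% and 0.0311% of all probe sets called, or 0.189% in all. Without WT preparation 2, only 20 members were called in WT, and 80 without WT preparation 1.

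The largest fall with 991 in WT was 1444495_at, from 6.500 and 6.203 to 4.48 and 4.44. In dKO it was at 6.90 and 6.65 with vehicle and 6.50 and 6.15 with 991. The groups did not overlap in WT, with a 3.71-fold decrease (adjusted p = 0.00292), but the difference between genotypes did not pass the test (−1.44 ± 0.37, adjusted p = 0.252). In the same cells AICAR, which shares the vehicle arrays, changed it by −2.22 ± 0.26 in WT and −2.86 ± 0.26 in dKO on the log2 scale (adjusted p = 0.000157 and 1.29e-05). Its most like pattern was a probe set of Nrp1, a semaphorin and VEGF co-receptor (r = 0.931, 59 arrays).

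In the sparse ranges the members after it were 1442067_at and 1458296_at, and a fall of 1.06 (log2) outside them lay close to that of the second. The first went from 4.97 and 6.05 to 3.88 and 4.46 in WT, where preparations differed more than in the others. Its vehicle mean was 5.51 in WT and 6.63 in dKO, so it reached the level of 6 only through dKO, and its values in WT are low. The second went from 6.89 and 7.19 to 6.058 and 5.902. They were 2.53-fold and 2.08-fold lower (adjusted p = 0.00039 and 0.00116). Their closest patterns were probe sets of Tsc22d3, a glucocorticoid-induced leucine zipper protein (r = 0.933), and Cblb, a ubiquitin ligase (r = 0.922).

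A rise with 991 that differed between genotypes was found for 1440490_at. It was at 6.72 and 6.65 with vehicle and 7.56 and 7.45 with 991 in WT, and at 6.61 and 6.61 against 6.69 and 6.57 in dKO. WT cells with 991 stood above the rest, with 1.76-fold in WT (adjusted p = 0.000411) and a difference of 0.80 ± 0.11 between genotypes (adjusted p = 0.0207). Members 1443649_at and 1458179_at also passed that test, with differences of 0.60 ± 0.09 and −0.65 ± 0.10 (adjusted p = 0.0297 and 0.0402). By the rule used for naming, the 3 largest rises with 991 in WT lay outside the sparse ranges, up to 1.97 (log2). The 3 largest positive differences between genotypes did too, up to 1.13 (log2). Within the sparse ranges, rises of 1.96-fold and 1.79-fold were called for 1445626_at and 1458974_at in WT (adjusted p = 0.0181 and 0.00818). AICAR moved 1445626_at the other way, by −1.16 ± 0.19 in WT (adjusted p = 0.00162).

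Between dKO and WT hepatocytes with vehicle 0 members were called by limma, with 0% of all probe sets tested. There 147 members (6.34%) had an unadjusted p under 0.05, against 5.45% of all probe sets, and the lowest adjusted p was 0.173. The comparison rests on 2 preparations a genotype, and the count depends on how they are paired. With WT preparation 1 paired with dKO preparation 2 and the reverse, a pairing chosen after values had been seen and not given by the labels, 120 members were higher and 67 lower. No share over all probe sets is given under that pairing, so whether members differ from other probe sets there cannot be judged.

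In MEFs AICAR moved about as many members as other probe sets, but more of them downward. In WT cells 740 of 2945 were lower and 585 higher, with 13.8% and 18% of all probe sets called, 31.7% in either direction. That is 25.1% lower and 19.9% higher, against 18.7% and 23.9% at the same level. In dKO cells 943 were lower and 669 higher, with 17.7% and 20.1% of all probe sets called (37.8% in either direction), or 32.0% and 22.7% against 23.9% and 26.7%. Falls of at least 1.5-fold were called for 123 members (4.18%) in WT and 295 (10.0%) in dKO. The shares were 2.83% and 5.68% at the same level, and 1.84% and 3.76% of all probe sets. Fibroblast markers fell in the same arrays, 6 of 8 in each genotype, while 2 rose in dKO, and their part in the members' falls was not tested.

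Probe sets of long noncoding RNA genes with 1 symbol were lower in 35.3% of 354 in WT MEFs and 45.2% in dKO, against 18.8% and 23.3% for protein-coding genes. The sparse ranges set members apart less than in hepatocytes, with 26.5% lower there in WT and 23.2% in other ranges.

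The deepest fall among MEF members in WT was 1458069_at. Its arrays were at 7.84, 8.09, 7.96 and 7.98 with vehicle and 5.93, 5.68, 5.76 and 5.82 with AICAR in WT, and its mean went from 7.69 to 5.30 in dKO. No AICAR array reached any vehicle array, with a 4.50-fold decrease in WT (adjusted p = 8.35e-19) and −2.39 ± 0.08 (log2) in dKO (adjusted p = 3.11e-20). The most like pattern over the 23 MEF arrays was a probe set of Malat1, an abundant nuclear long noncoding RNA (r = 0.993). That probe set fell by 1.51 ± 0.05, and 6 other Malat1 probe sets differed by −1.07 to −0.13. In hepatocytes 1458069_at fell too, by 1.28 ± 0.06 in WT (adjusted p = 2.9e-07).

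Of members in the sparse ranges, to which the names given here are limited, the next was 1443216_at (a fall of 2.07 on the log2 scale outside these ranges was larger). It had WT arrays at 6.71, 6.38, 6.38 and 6.65 with vehicle and 4.71, 4.53, 4.21 and 4.78 with AICAR, 3.92-fold lower (adjusted p = 2.73e-14). All AICAR arrays lay below all vehicle arrays, and the fall in dKO was 1.91 ± 0.12 (log2, adjusted p = 2.65e-14). Its closest pattern was a probe set of Ints6, an Integrator subunit (r = 0.982), and it fell by 1.32 ± 0.07 in WT hepatocytes too (adjusted p = 2.68e-07).

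A larger fall without AMPK was measured for 1443394_at. WT arrays were at 10.36, 10.51, 10.37 and 10.39 with vehicle and 8.71, 8.76, 8.80 and 8.77 with AICAR, and dKO arrays at 10.04, 9.94, 9.97 and 10.04 against 6.74, 7.17, 6.94 and 6.95. The dKO arrays with AICAR were the lowest of all, 8.26-fold below vehicle (adjusted p = 8.85e-27), against 3.12-fold in WT (adjusted p = 4.12e-20). The effects differed by 1.40 ± 0.08 (log2, adjusted p = 1.44e-13). Its most like pattern was a probe set of Hmga2, a chromatin protein of embryonic cells (r = 0.994), which fell by 1.39 ± 0.07 while 3 other Hmga2 probe sets fell by 0.50 to 0.55. In the same direction 1458241_at fell by 1.42 ± 0.06 in WT (adjusted p = 2.36e-18) and 7.17-fold in dKO (adjusted p = 5.34e-26).

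The largest rise in WT MEFs, 2.03 (log2), was outside the sparse ranges, and within them it was that of 1457302_at. It went from 7.31, 7.51, 7.32 and 7.15 to 9.15, 9.27, 9.24 and 9.19 in WT and from a mean of 7.60 to 9.31 in dKO. The groups were apart in both genotypes, 3.70-fold in WT (adjusted p = 7.65e-19) and 3.27-fold in dKO (adjusted p = 2.99e-18). A probe set of Tardbp, the RNA-binding protein TDP-43, was most like it (r = 0.992) and rose by 1.05 ± 0.04, while of 4 other Tardbp probe sets 2 fell, by 0.28 ± 0.04 and 0.30 ± 0.04 (adjusted p = 1.68e-07 and 8.54e-07), and 2 were not called. Also in hepatocytes 1457302_at rose, by 0.57 ± 0.06 in WT and 0.64 ± 0.06 in dKO (adjusted p = 0.000128 and 2.86e-05).

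Most of the rise of 1442241_at was seen in WT cells. WT arrays were at 6.76, 7.08, 6.97 and 6.92 with vehicle and 8.49, 8.56, 8.63 and 8.48 with AICAR, and dKO arrays at 6.68, 6.73, 6.76 and 6.66 against 6.906, 6.9998, 6.960 and 6.885. The WT arrays with AICAR stood above all others, and the effects differed by 1.38 ± 0.10 (log2, adjusted p = 1.05e-11). A probe set of Pcf11, a 3′ end processing factor, was most like it (r = 0.959). The rise of 1443038_at was 2.38-fold in WT (adjusted p = 8.76e-12), with 7.69 to 7.79 against 6.43 to 6.60 on the vehicle arrays.

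**Figure D5:**
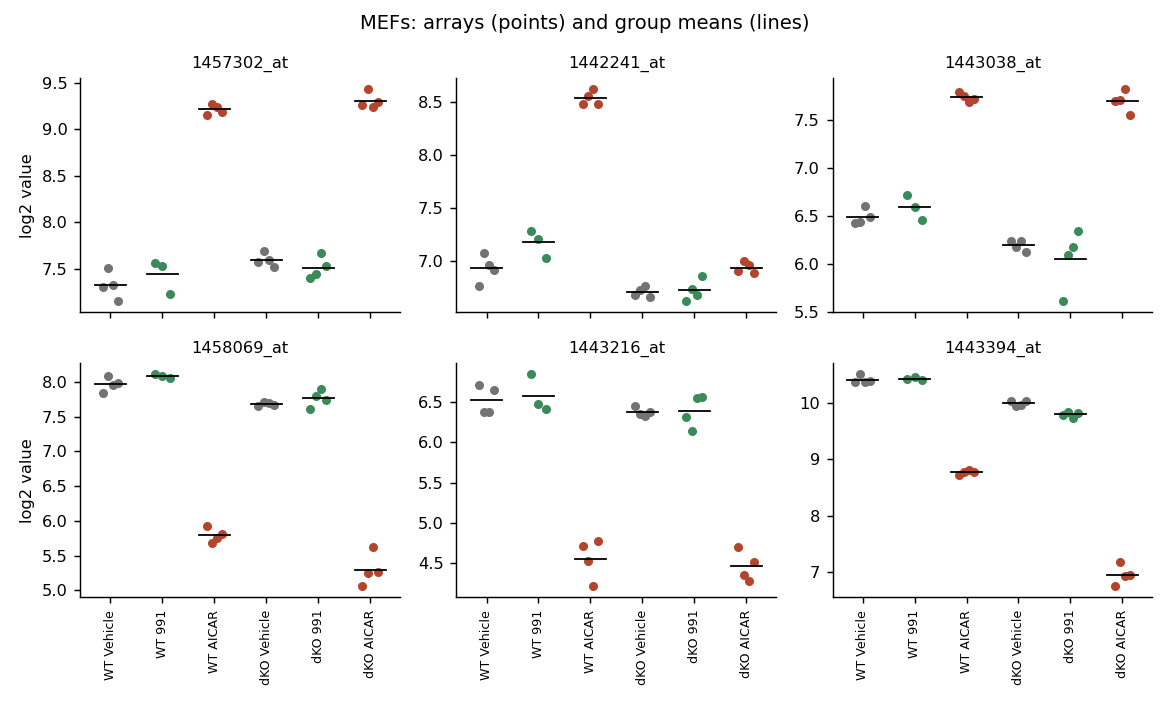
Log2 values (vertical axis, a scale of its own in each panel) of the 3 members with the largest rise and the 3 with the largest fall with AICAR in WT MEFs among members in sparse ranges, for each genotype and treatment. Points are arrays and lines group means, and 1443394_at reads 8.71 to 8.80 with AICAR in WT and 6.74 to 7.17 in dKO.

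The AICAR effect in WT minus that in dKO was above 0 for 298 MEF members and below 0 for 150, with 5.67% and 3.7% of all probe sets called, 9.37% in either direction. These are 10.1% and 5.09% of members, against 7.74% and 4.44% at the same level. Of the 298, 248 were lower in dKO and 152 in WT, and their medians were −0.18 in WT and −0.62 in dKO. An example is 1441152_at, which differed by 1.45 ± 0.13 (log2, adjusted p = 3.83e-09) with a mean of 6.56 on vehicle and 5.28 on AICAR arrays of dKO cells. Another, 1445618_at, rose by 0.89 ± 0.08 in WT and, from a vehicle mean of 5.77, fell by 0.23 ± 0.08 in dKO (adjusted p = 0.0295). It reached the level of 6 only through the WT vehicle arrays. Those arrays are also the control of its rise, so no test is given for that rise.

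Falls with AICAR were also compared between the cell types, which have no arrays in common. Of the 1946 members in both, 447 were lower in WT MEFs and 541 in WT hepatocytes, and 155 were lower in both, 34.7% of the first and 28.7% of the second. Of all 1946, 27.8% were lower in WT hepatocytes, and for probe sets with 1 symbol the shares were 19.01% of those lower in MEFs and 14.5% of all. Of those lower in MEFs 57 (12.8%) were higher in hepatocytes, and of all 1946 12.2% were. In dKO cells 575 and 683 were lower and 281 in both, 48.9% and 41.1%, where 35.1% of all were lower in hepatocytes. For probe sets with 1 symbol these shares were 23.5% of those lower in MEFs and 12.3% of all. The overlap was not tested. One member that went opposite ways is 1458710_at, which rose in WT hepatocytes and fell by 1.18 ± 0.06 in WT MEFs (adjusted p = 3.85e-16).

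With 991 in WT MEFs 249 members were higher and 169 lower, 14.2% of members against 17.9% at the same level and 13% of all probe sets tested (9.23% higher, 3.8% lower). Rises took 8.46% of members and 13.5% at the same level. The width of the value distribution moved with this comparison: the interquartile range was 3.58 to 3.74 on WT vehicle arrays and 3.73 to 3.89 on WT 991 arrays. With array width added to the fit, a step taken after values had been seen, 125 members were called, 55 higher and 70 lower. Quantile normalization gave 149 higher and 204 lower, so the balance of rises and falls depends on scaling. Leaving out 1 array gave 174 calls without replicate 2 and 211 without replicate 3 of WT with 991, and 194 and 267 without vehicle replicates 1 and 3.

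Among these, 1458076_at was at 8.38, 8.56, 8.51 and 8.41 with vehicle and 9.46, 9.30 and 8.59 with 991, and 1446656_at at 6.55, 6.64, 6.89 and 6.73 against 5.91, 5.84 and 6.30. Both groups were apart, though 1 array with 991 lay near the vehicle arrays in each. They were 1.57-fold higher (adjusted p = 0.0153) and 1.61-fold lower. With vehicle, 1446656_at differed in dKO from WT by −1.22 ± 0.11 (log2), and its level over both was 6.09. It thus reached the level of 6 only through the WT vehicle arrays. Those arrays are also the control of its fall, so no test is given for it. The closest pattern to 1446656_at was a probe set of Cxcl1, a neutrophil chemokine (r = 0.955, 23 arrays). For 1460096_at, 0.53 ± 0.08 higher (log2, adjusted p = 4.53e-05), it was one of Cep43, a centrosomal protein (r = 0.976).

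In dKO MEFs 991 changed 52 members, 21 higher and 31 lower, or 1.77% against 2.01% at the same level and 1.78% of all probe sets (0.917% higher, 0.866% lower). Among those named, 1457761_at rose by 0.30 ± 0.07 and 1454224_at fell by 0.40 ± 0.10 (log2, adjusted p = 0.0197 and 0.0239). The effect of 991 differed between genotypes for 96 members, 74 higher and 22 lower in WT minus dKO, 3.26% against 3.94% at the same level and 2.9% of all probe sets (2.37% higher, 0.531% lower). For 1457832_at it differed by 0.66 ± 0.12 (adjusted p = 0.0022), with 6.50, 6.58, 6.43 and 6.53 on vehicle and 7.19, 7.13 and 6.93 on 991 arrays of WT cells, and means of 6.35 and 6.27 in dKO. The dKO counts rest on single arrays, with 24 to 55 members called when 1 array was left out.

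dKO and WT MEFs differed at 1444 members with vehicle, 784 higher and 660 lower in dKO. That is 49.0% of members, against 55.0% at the same level and 40.9% of all probe sets tested (22.3% higher, 18.6% lower). The rule used the vehicle arrays of both genotypes, and among the 2723 members at 6 or more in each genotype 710 were higher and 575 lower. Since the arrays are technical replicates, a difference between cultures or lines cannot be told apart from the genotype. Of the fibroblast markers 7 of 8 were lower in dKO (median −1.12, log2), and of the cholangiocyte markers 4 of 4 (median −0.64). None of either list was higher, and no marker of the other lists was called. Their part in the members' differences was not tested.

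The largest of the named differences was 1445226_at, at 6.42, 6.41, 6.66 and 6.29 in WT and 11.16, 11.05, 11.14 and 11.03 in dKO with vehicle. The genotypes were far apart under every treatment, 25.04-fold with vehicle (adjusted p = 1e-30). In hepatocytes its level was 6.39, and no probe set at all was called between genotypes there, so a difference cannot be judged. The opposite held for 1433184_at, with means of 9.63 in WT and 6.42 in dKO, 9.26-fold lower (adjusted p = 4.57e-26). For 1441679_at the means were 8.81 and 5.30. It reached the level of 6 only through WT, as did 123 members, of which 85 were called lower in dKO and none higher, a direction that the level rule fixes, so no test is given for it. For 1459702_at, 4.40-fold higher in dKO, AICAR lowered the dKO level by 1.57 ± 0.09 (log2, adjusted p = 1.94e-15), from a mean of 8.26 to 6.70.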

How the data were processed

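The authors deposited 1 log2 intensity for each probe set and array, made with RMA and Partek, per the submitters' processing notes, with versions and settings not given in the sources used here. Arrays carry no read depth, and their number limits the precision. All 82 arrays were mapped to a group from the labels, and none was identical to another. The 64 control probe sets were left out.

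In each cell type all 45037 other probe sets were fitted with limma (version 3.58.1, under R 4.3.3), whose eBayes step used a trend in intensity, with Benjamini-Hochberg adjustment over all of them and a call at an adjusted p under 0.05. MEFs had a mean for each group and 17 residual degrees of freedom. Hepatocyte technical replicates were averaged and preparation within genotype was a block, with 4 degrees of freedom, and dKO against WT used 4 vehicle means with 2. The block comes from the labels, which give the preparation of each hepatocyte array. Preparations of a genotype also deviated together across treatments (r = 0.358 to 0.783 across probe sets). The fit was tested on simulated data. Tables and figures were made with Python 3.11.15, pandas 2.3.3 and matplotlib 3.10.9.

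Members and lists were chosen with earlier results of these data known. Named members are the 3 largest rises and falls per comparison (2 in 991 or AICAR in dKO) among called members whose replicates all lie on 1 side, plus the 3 brightest. The probe table is not complete, and unlisted probe sets outside the sparse ranges may match known genes, so names were limited to the sparse ranges after values had been seen. Of 64 entries that the rule first selected, 31 lay outside and are counted but not named, among them the largest differences between dKO and WT MEFs (up to 6.74 on the log2 scale). Ranges of 1000 numbers were tried first, and named members were seen under both widths: 59 of 63 named entries are the same. The most like pattern is the probe set with 1 symbol and the highest Pearson correlation over all arrays of the cell type. Alternatives covered normalization, filters, the level rule, blocks, and leaving out arrays or preparations.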

Additional observations from a re-analysis of the deposited data

Results flagged for a closer look

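Among 180 groups of 4 MEF arrays tested over the named members, 8 had an array far from the other 3, where chance alone gives about 1 in 20. In WT cells, 1 vehicle array read 13.27 for 1432827_x_at (others 13.11 to 13.13), and single AICAR arrays read 9.45 for 1442248_at (others 9.31 to 9.34), 6.39 for 1447168_at (others 6.06 to 6.08) and 8.32 for 1458076_at (others 8.52 to 8.53). In dKO cells, an array read 6.14 for 1442785_at with 991 (others 6.44 to 6.49), 6.68 for 1454224_at with vehicle (others 6.73), 8.09 for 1458076_at with AICAR (others 7.96 to 7.98) and 14.21 for 1459986_a_at with AICAR (others 14.24).

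An effect that differed between genotypes, by the interaction term in limma (adjusted p under 0.05) and given as WT minus dKO on the log2 scale, was called 32 times, for 29 of the named members. For AICAR in hepatocytes these were 1440020_at (2.54), 1442427_at (2.52), 1442107_at (2.26), 1458710_at (2.12), 1443649_at (0.70), 1447483_s_at (−1.34), 1457746_at (−0.93) and 1447484_x_at (−0.82). For 991 in hepatocytes they were 1440490_at (0.80), 1443649_at (0.60) and 1458179_at (−0.65). For AICAR in MEFs they were 1441152_at (1.45), 1458241_at (1.43), 1443394_at (1.40), 1459702_at (1.39), 1442241_at (1.38), 1445618_at (1.12), 1442785_at (0.39), 1457356_at (−0.56), 1459659_at (−0.54), 1446530_at (−0.50) and 1442248_at (−0.45). Of these, 1457356_at and 1445618_at reached the level of 6 only through the WT vehicle arrays, which also enter their differences. Their calls are therefore not read as tests. For 991 in MEFs they were 1457832_at (0.66), 1442785_at (0.64), 1441642_at (0.63), 1460096_at (0.52), 1458241_at (0.43), 1432827_x_at (0.17), 1446656_at (−0.69), 1459514_at (−0.54), 1441754_at (−0.50) and 1457761_at (−0.47). Of these, 1446656_at reached the level of 6 only through the WT vehicle arrays, which also enter its difference. The level rule favours its direction, so its call is not read as a test.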

How the results depend on the processing

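All values here are the percent of members called, or the difference in that percent from probe sets with 1 symbol of the same level, and the cause of a move was not tested. With the technical replicate number as a replicate block no MEF count moved by over 1.5 times (991 in WT 12.3%, AICAR in WT 45.8%), and the numbers pair no arrays (median r = 0.005 across probe sets, 55 pairs). Without an intensity trend, 0.815% were called for 991 in dKO MEFs and 1.97% for its interaction. With array width as a covariate these were 3.46% and 1.15%, and 4.24% for 991 in WT. At a level of 7 or more, 2.65% were called for 991 in dKO MEFs and 0.578% for the 991 interaction in hepatocytes. In sparse ranges of 100 and 1000 numbers, 0.749% and 0.866% were called for 991 in dKO MEFs. Without the preparation block in hepatocytes, values were 1.72% for 991 in WT, 0% for the 991 interaction (0 called by limma) and 8.62% for the AICAR interaction. With every array as a sample, which counts technical replicates as independent, they were 34.4% for 991 in WT, 3.49% in dKO, 12.7% and 34.3% for the 991 and AICAR interactions, and 20.8% for dKO against WT. With the preparation number as a replicate block across genotypes, dKO against WT gave 0.0431%. With the numbers crossed, which the correlations between genotypes (−0.734 to −0.585) made a candidate, it gave 8.06%, or 120 higher and 67 lower, with no share over all probe sets beside it. With 1 probe set per gene, differences from the same level were −6.17 for 991 in WT MEFs, 5.81 and 8.32 for AICAR in WT and dKO MEFs, and 22.8, 26.0 and 12.4 for AICAR in WT, in dKO and in its interaction in hepatocytes, in percentage points. Leaving out 1 MEF array gave 5.91% to 20.7% for 991 in WT, 0.815% to 1.87% in dKO, and 1.49% to 5.87% for the interaction. Leaving out 1 preparation gave 0.862% to 6.21% for 991 in WT, 0% to 0.0431% in dKO, 0.0431% to 0.216% for its interaction, 25.7% to 38.8% for AICAR in WT, 7.63% to 11.1% for its interaction, and 0% to 0.216% for dKO against WT, the lone preparation being assumed to vary like the others. Quantile normalization turned the MEF 991 split to 42.2% higher in WT and 58.0% in the interaction, from 59.6% and 77.1%. The planned match of members to RefSeq was not run, because no accession is paired with them. Of the named entries, 18 of 63 lost their call in at least 1 alternative and 15 in at least 1 fit without an array or preparation, and none changed direction.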

Other observations

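The 2 brightest named members were the same in both cell types, 1459986_a_at at 14.21 in MEFs and 13.99 in hepatocytes and 1432827_x_at at 13.35 in MEFs and 13.33 in hepatocytes. AICAR moved neither in WT cells (adjusted p from 0.0592 to 0.726). A member bright in hepatocytes and dim in MEFs was 1440327_at, at 12.06 and 3.11. Of the MEF members named for 991, 1442311_at stood at 6.84 in hepatocytes, where AICAR lowered it by 1.84 ± 0.09 in WT and 2.01 ± 0.09 in dKO (log2, limma adjusted p = 3.44e-07 and 6.9e-08), against a difference of 0.09 ± 0.05 in WT MEFs (adjusted p = 0.201).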
